A study of Mus musculus with 32 samples.

Results

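The transcripts described here were high in normal control tissue and low in the median tumour of every type. A transcript was a member when its median RPKM (reads scaled to transcript length and library size) over the 6 control libraries was at least 5, and when that median plus 1 was at least 8 times the median plus 1 of clear cell sarcoma, of osteosarcoma and of synovial sarcoma. Of the 55419 mouse transcripts in the table, 216 met the rule, 0.39% of all and 2.67% of the 8091 whose control median reached 5. The members were chosen by their control and tumour levels, so the gap between controls and tumours is given as a description and was not tested.

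RNA was sequenced from 32 libraries. The 13 clear cell sarcomas (CCS), whose titles carry EA1, had been started with Rosa26CreER (5), TATCre (4), Prx1CreERT2 (2) or Bmi1IRESCreERT2 (2). These names give the source of the recombinase Cre. The 7 osteosarcomas (OS) carry Rb1p53 in their titles together with Col1Cre (4) or Prx1Cre (3), and the 6 synovial sarcomas (SS) carry Myf5-SSM2/PLUC. The 6 controls are titled Chest (5) or Bone (1). Their genotype, treatment and exact tissue are not given in the labels, nor is the age of any animal. A Cre recombines DNA only in the cells where it is made or delivered. Because no file used here pairs the UCSC transcript identifiers with gene names, the tissue labels could not be checked against marker genes. Library names below give the group and the number in the title.

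A sarcoma grows from mesenchymal cells, and its cells usually keep only part of the program of the mature tissue around them. Transcripts of differentiated cells, such as those of muscle fibres, fat cells or cartilage, are commonly much lower in a solid tumour than in the normal tissue it displaces. Whether the members are of this kind could not be checked without gene names. In bulk RNA, fewer cells of a type and less RNA per cell cannot be told apart.

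Depth was recovered from the table, and each library held 8.11 to 13.1 M reads, with a median of 9.94 M. Chest1 and Chest2 were far closer to each other than any other control pair. Their mean chi-square per transcript was 1.70 over 7469 transcripts, against 22.3 for Bone3 and Chest4 and 85.2 to 173 for the other pairs. The labels do not say whether they came from separate animals or from 1 RNA, and the files do not settle it. They were counted as 2 libraries, so the SDs of control levels below may be too small. With their mean used as 1 control, 217 transcripts met the rule, of which 196 were members.

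The members spanned a wide range of abundance in normal tissue. Their control medians ran from 7.36 to 5182 RPKM with a median of 38.9, and 60 members reached 100 RPKM and 9 reached 1000. The member at 5182 RPKM had a recovered length of only 3 bases (lengths are described below). Among the 135 members of at least 100 bases the highest control median was 2539 RPKM, 39 reached 100 and 5 reached 1000. Because of the 8-fold limit a member needs a control median of at least 7, so the minimum of 5 had no effect. The limit lies on a continuum. The transcript nearest inside had a ratio of 8.08 (control median 11.5 RPKM, CCS 0, OS 0, SS 0.552), and the nearest outside had 7.93 (control 387, CCS 1.31, OS 0.167, SS 47.9).

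Many members were short in recovered length. This is the length by which the RPKM values were scaled, and it need not be that of the whole transcript. All lengths given here are of this kind. A length was recovered for 210 of the 216, with a median of 149 bases against 997 bases over the 8033 transcripts of control median 5 or more that had a length. Of these 210 members, 75 (35.7%) were under 100 bases, against 14% of the 8033. Lengths ran from 3 to 6556 bases, and 12 members were under 10 bases. The 135 members of at least 100 bases had a median of 133.5 reads per control value, and the 75 shorter ones had 21. For this reason the members of at least 100 bases, called long members below, are given separately.

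Most members were listed at 0 in most tumours. Of 5616 member values in tumours, 61.5% were listed at 0, against 4.74% for the other 7875 transcripts of control median 5 or more and 14.7% for the members in controls. The class median was 0 for 161 members in CCS, 148 in OS and 147 in SS, and it was 0 in all 3 tumour types for 126. A value of 0 need not mean that no read was found. Across the 16348 transcripts with recovered reads, a library held 61 to 832 values of 1 to 4 reads but 1273 to 2126 values of 10 to 19 reads, with the treatment of low values not given in the sources used here. For a transcript of 100 bases at the median depth, 10 reads amount to 10.1 RPKM. When values listed at 0 were set to 10 reads, 72 of the 210 members with a length still met the rule, 67 of them long.

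Among the abundant long members the residual level was highest in synovial sarcoma, nearest to the limit. Of the 39 long members whose control median reached 100 RPKM, 39 had an SS median of at least 1 RPKM, compared with 24 in CCS and 20 in OS. The median member of these 39 stood at 16.2 RPKM in SS, 2.00 in CCS and 1.01 in OS. As a share of its own control median, the median member kept 7.99% in SS, 0.490% in CCS and 0.533% in OS. The highest shares were 12.0% in SS, 9.66% in CCS and 7.95% in OS, all held under the limit by the rule itself. The rule used these medians, so the order of the types is a description and was not tested. Over the 14731 transcripts tested between types, SS leaned higher too. Their median log2 difference was -0.30 for CCS minus SS and -0.33 for OS minus SS. It was -0.12 and -0.09 with median-ratio scaling, and 0.03 and 0.02 with quantile normalization. How many transcripts met the rule turned most on SS, with 326 without SS 37-8 and 325 without SS 44. Among the 96 long members of lower control median, most class medians were 0. The class median was listed at 0 for 75 of these in CCS, 69 in OS and 71 in SS.

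**Figure D1:**
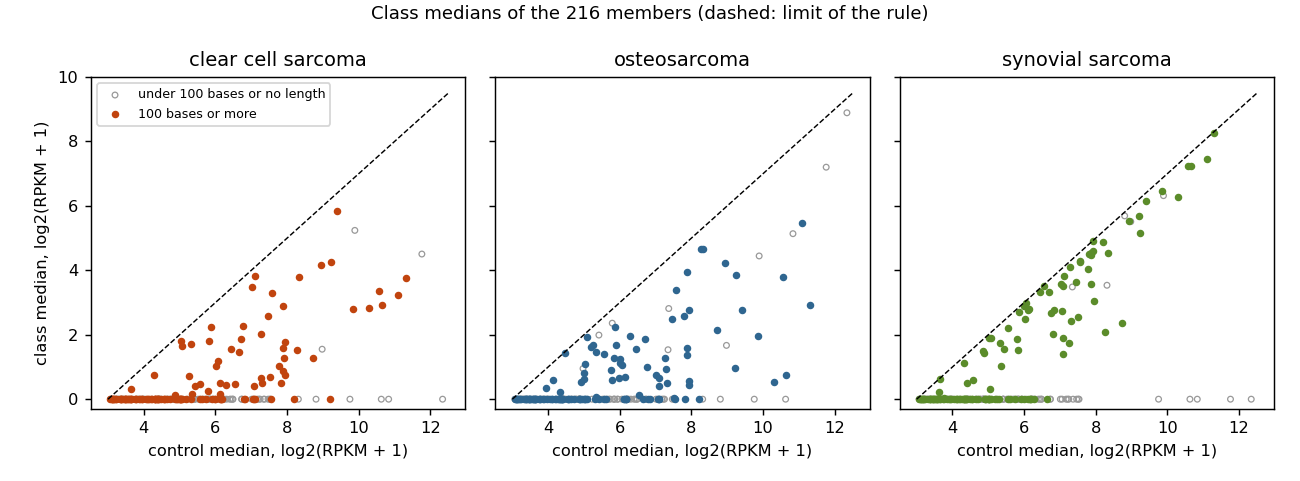
Median of each tumour type against the control median for the 216 members, both as log2(RPKM + 1). Filled points are members of at least 100 bases, open points are shorter or without a length, and the dashed line is the limit set by the rule. Points lie along the limit in synovial sarcoma, lower in the other types, and 126 members sit at 0 in all 3.

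The residues of the 3 types overlapped in part. With all 216 counted, 29 had a median of at least 1 RPKM in CCS, OS and SS together, 27 of them long, and 140 reached 1 RPKM in none. Another 26 reached it in SS alone, 11 in OS alone and 1 in CCS alone. A median of at least 5 RPKM was reached by 43 members in SS, 16 in CCS and 16 in OS. Where the 3 medians differed, the highest was SS for 63 members, OS for 22 and CCS for 5. The rule used these medians, so this order is a description. It was not counted over all transcripts, which also leaned to SS as given above.

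The name of the group, lost in every tumour, holds for class medians and not for single tumours. None of the 216 met the 8-fold limit in each of the 26 tumour libraries. A member met it in 15 to 25 of the 26, with a median of 22, and 172 members met it in at least 20. Of the 5616 member values, 1005 (17.9%) were over the limit. The 6 tumour libraries with most members at 5 RPKM or more (SS 37-4, Bmi1IRESCreERT2 1, SS 44, Rosa26CreER 2, Prx1Cre 42 and Col1Cre 27) held 567 of these, or 56.4%. Those 6 were picked by their member levels, so their large part of the values over the limit follows in part from that choice. Across the other 20 tumours, 43 members were under the limit in every library, 23 of them long.

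Tumour libraries of 1 group differed widely in how many members they kept. Among the 13 CCS, the members at 5 RPKM or more numbered 10 at the lowest (TATCre N123-RLN and Prx1CreERT2 4), 28 at the median and 111 at the highest (Bmi1IRESCreERT2 1). Osteosarcomas ranged from 16 in Prx1Cre 28 to 83 in Prx1Cre 42, with a median of 35. In synovial sarcoma the range was 19 in SS 37-7 to 122 in SS 37-4, with a median of 58.5. Every control held more, from 144 in Chest3 to 202 in Chest4. Long members gave the same leading CCS library, Bmi1IRESCreERT2 1 with 85, while SS 44 led in SS with 75 and Col1Cre 26 in OS with 55.

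**Figure D2:**
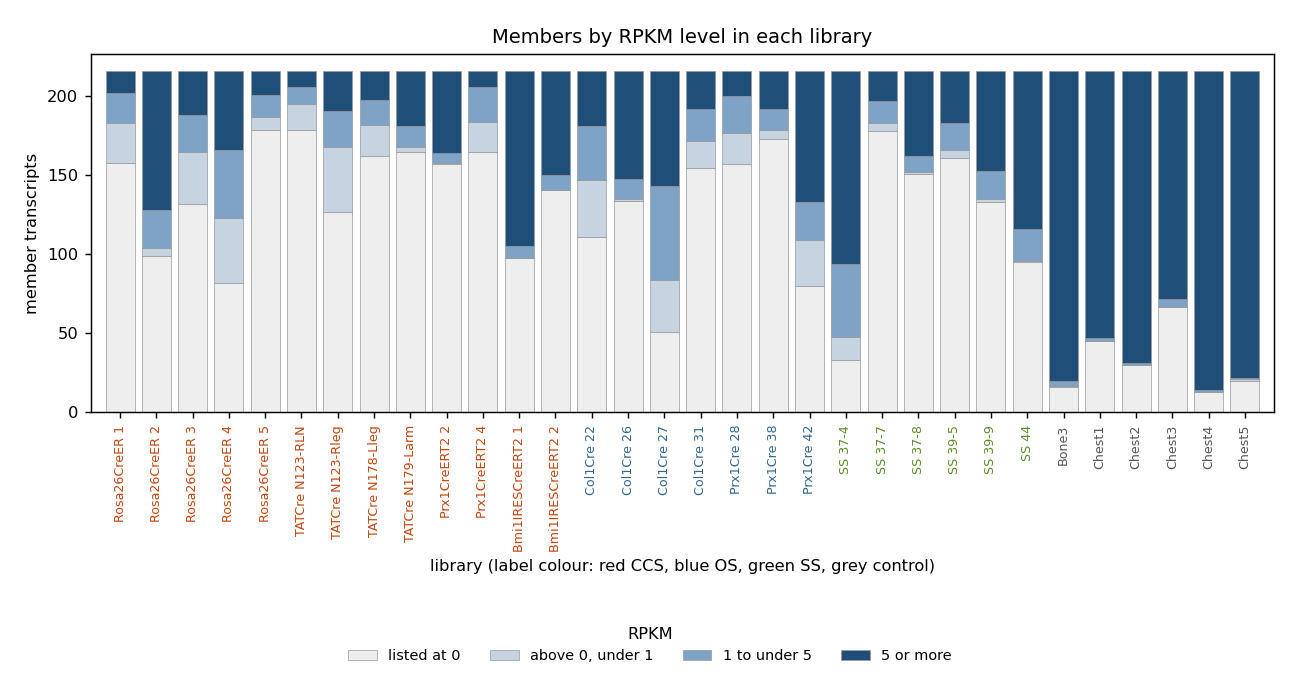
Number of the 216 members at each RPKM level, 1 bar per library, with libraries ordered by group. Controls hold 144 to 202 members at 5 RPKM or more, and tumours of 1 type differ widely, as SS 37-4 (122), SS 44 (100) and SS 37-7 (19) show.

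Weighted by abundance, the 210 members with a recovered length took 1.76% to 2.51% of all reads in the controls. Their share in CCS ran from 0.0175% in Prx1CreERT2 4 to 1.02% in Bmi1IRESCreERT2 1, with a median of 0.0266%. In OS it ran from 0.0278% in Prx1Cre 28 to 1.15% in Prx1Cre 42, with a median of 0.113%. Synovial sarcomas held 0.0499% in SS 37-7 to 0.487% in SS 44, with a median of 0.227%. The members were chosen by control and tumour levels, so a higher share in controls was largely set by the rule. Controls and tumours did not overlap on this measure. They overlapped in the members' share of summed RPKM, which gives short transcripts more weight. There Bmi1IRESCreERT2 1, at 4.41%, lay inside the control range of 2.32% to 5.99%. A member with a recovered length of 3 bases had 34180 RPKM in that library and up to 26133 in a control. The share of summed RPKM without it was not computed. By share of reads, both Bmi1IRESCreERT2 tumours, at 1.02% and 0.423%, were above the other 11 CCS, of which Prx1CreERT2 2 (0.368%) and Rosa26CreER 2 (0.344%) came next. The other 4 Rosa26CreER tumours lay between 0.0177% and 0.0269%.

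**Figure D3:**
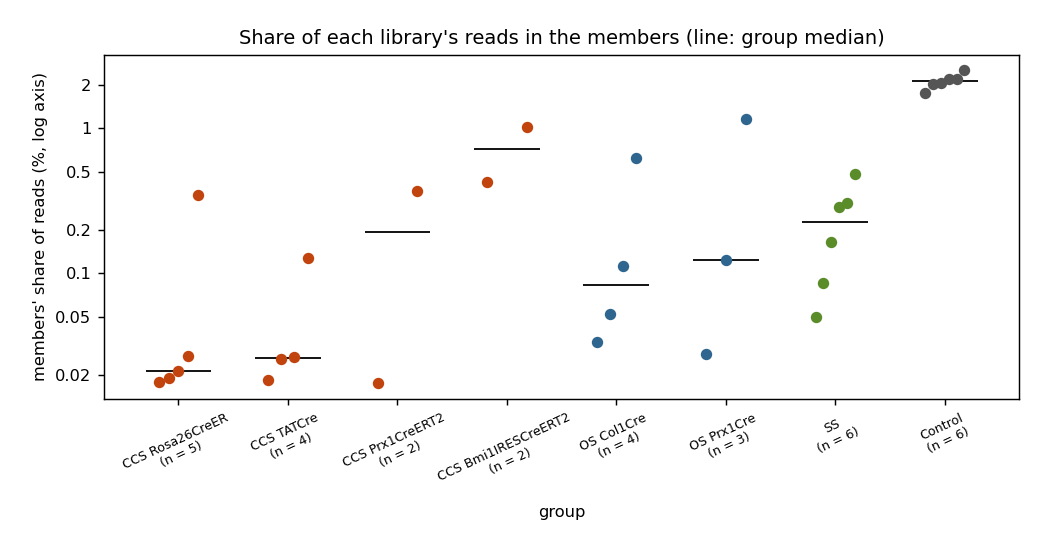
Percent of each library's reads that fell in the 210 members with a recovered length, on a log axis, 1 point per library and a line at each group's median. The rule chose members that were higher in controls. The 6 controls lie at 1.76% to 2.51%, above every tumour, and tumours of 1 group differ by up to the distance between Prx1Cre 28 (0.0278%) and Prx1Cre 42 (1.15%).

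Different tumours kept different members. For each member the tumour library with its highest RPKM was found, and 161 of the 216 had it in 1 of 5 libraries: Prx1Cre 42 (45 members), Bmi1IRESCreERT2 1 (41), Col1Cre 26 (38), SS 37-4 (20) and SS 44 (17). These sets were chosen by their values and are described with no test. The 23 long members highest in Prx1Cre 42 had a median of 67.2 RPKM there, within the 33.2 to 71.9 RPKM of the 6 controls. They stood at 11.4 RPKM in SS 39-9, 10.3 in Bmi1IRESCreERT2 1 and 7.66 in SS 44, and their median was under 4 RPKM in each other tumour.

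The 31 long members highest in Bmi1IRESCreERT2 1 had a median of 40.5 RPKM there, inside the control range of 29.7 to 69.0. The next tumour, SS 44, had 7.00 RPKM. In Bmi1IRESCreERT2 2, the other tumour started by the same Cre, their median was listed at 0. The 30 long members highest in Col1Cre 26 were shared more widely. They had 49.1 RPKM in that tumour, 24.2 in Bmi1IRESCreERT2 1, 14.7 in SS 37-4 and 10.3 in SS 37-8.

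These sets also differed among the controls. Members highest in Col1Cre 26 had medians of 85.1, 85.8 and 83.4 RPKM in Chest1, Chest2 and Chest5, above the 50.7 in Bone3, 47.8 in Chest4 and 32.8 in Chest3. Members highest in Bmi1IRESCreERT2 1 ran the other way, at 69.0 in Bone3 and 65.6 in Chest4 against 29.7 in Chest1, with Chest2 close to Chest1. For the Prx1Cre 42 set, Chest5 (71.9) and Bone3 (58.7) were highest and Chest3 (33.2) lowest. The 9 long members highest in SS 39-9 had 32.3 RPKM there and 17.3 in Prx1Cre 42, with controls at 14.6 to 59.6.

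**Figure D4:**
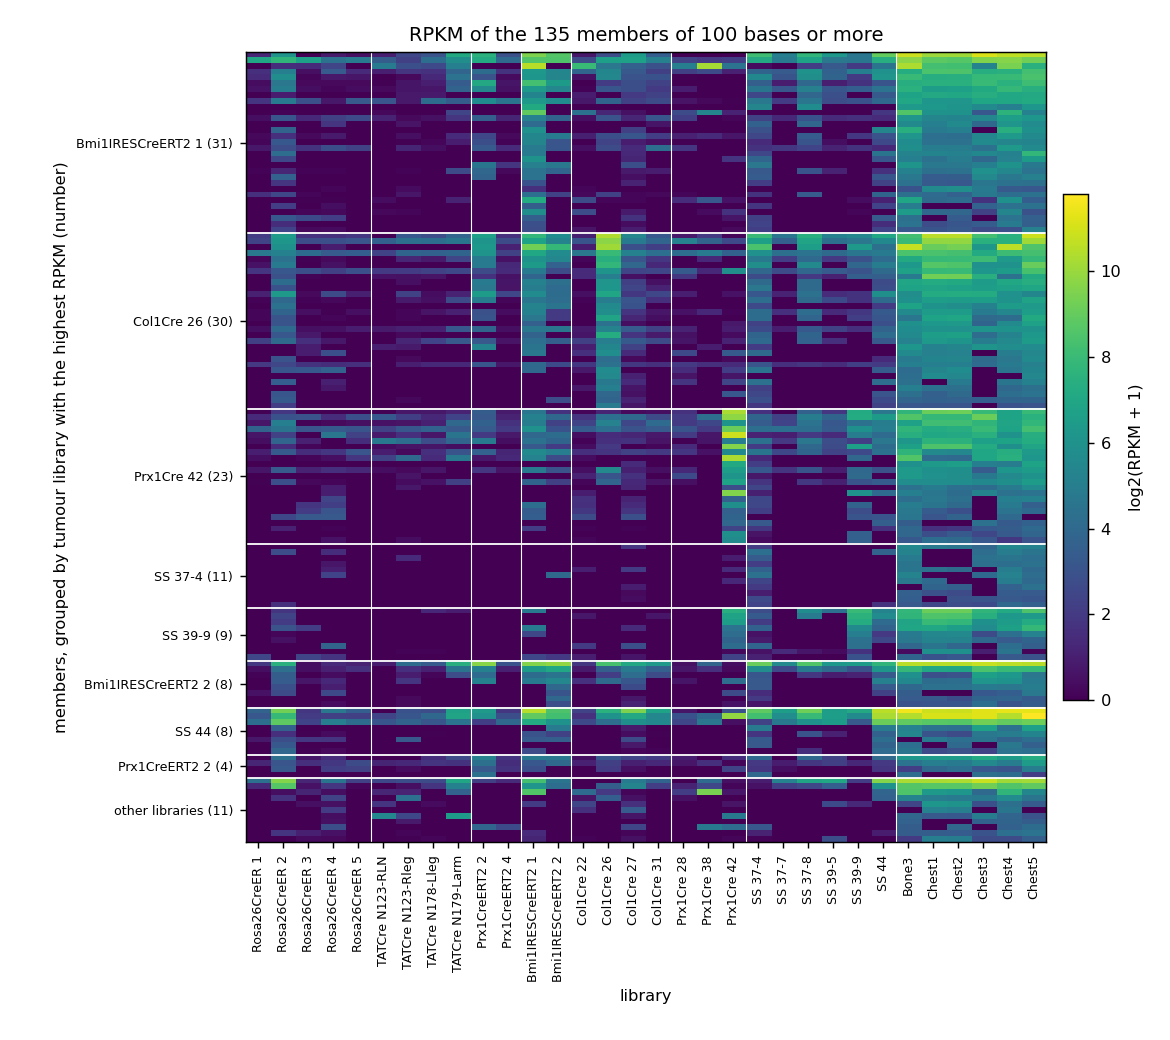
RPKM of the 135 long members (rows) in the 32 libraries (columns) as log2(RPKM + 1), with rows grouped by the tumour library of highest value and sorted by control median within a set. The sets of Bmi1IRESCreERT2 1 (31), Col1Cre 26 (30) and Prx1Cre 42 (23) each show 1 tumour column near control levels.

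Levels of the 135 long members were ranked in some pairs of tumours as a description. The pairs were picked by hand and are not all pairs. Many values were tied at 0, such as 51 in Prx1Cre 42 and 72 in SS 39-9. The transcripts are not independent of each other. Rosa26CreER 2 and SS 44, tumours of different types, ranked the members alike (Spearman's rho 0.84), and Rosa26CreER 2 ranked them more loosely like Col1Cre 26 (0.64) and Bmi1IRESCreERT2 1 (0.62). Prx1Cre 42 ranked them still more loosely like SS 39-9 (0.54) but unlike Rosa26CreER 2 (-0.05), Bmi1IRESCreERT2 1 (0.03), Col1Cre 26 (0.05), SS 37-4 (-0.07) and SS 44 (0.15). Control pairs ranged from 0.70 for Chest3 and Chest2 to 0.98 for Chest1 and Chest2.

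Levels were uneven in the controls too. A control was listed at 0 for 99 of the 216 members, of which 33 were long and 60 were under 100 bases. All 6 controls reached 5 RPKM for 106 members, 91 of them long. Bone3 was at least 2-fold above the median of the 5 Chest libraries on log2(RPKM + 1) for 49 members and at least 2-fold below it for 34. Among long members those counts were 19 and 19. With 1 Bone library the difference has no replicate check.

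Of the 117 members above 0 in all controls, 34 had every control above every tumour, 30 of them long. For the other 83, at least 1 tumour reached the lowest control. Over the 15230 transcripts with at least 1 RPKM in 6 or more libraries, 1.16% had every control above every tumour. The rule used this contrast, so the members' count is given beside that share as a description. In those 34 the gap was narrow. The lowest control was a median of 1.36-fold and at most 4.24-fold above the highest tumour, which was Bmi1IRESCreERT2 1 for 10 of them and Col1Cre 26 for 6. Counting all 216 members, 108 had a tumour at or above the control median, and the fewest tumours at 1 RPKM or more was 0, for 2 members.

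The 2 long members of highest control median show the pattern in full. The transcript uc007wmx.2, 140 bases long, had 1844 (lowest), 2539 (median) and 2990 RPKM (highest) in the controls, with a mean of 2414 ± 448 (SD, n = 6), or 2520 ± 406 (SD, n = 5) with Chest1 and Chest2 averaged. Its lowest, median and highest levels were 0, 12.7 and 1443 RPKM in CCS, 0, 6.64 and 718 in OS, and 92.4, 304 and 1510 in SS. All 6 controls were above all 26 tumours, though SS 44 (1510) and Bmi1IRESCreERT2 1 (1443) came close to Chest2 (1844). In OS it was high in 3 Col1Cre tumours (718, 184 and 114 RPKM in numbers 27, 26 and 31) and under 7 RPKM in the other 4.

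For uc008uzd.1, 640 bases long, the controls gave 1372, 2191 and 3558 RPKM with a mean of 2183 ± 796 (SD, n = 6), or 2181 ± 890 (SD, n = 5) with Chest1 and Chest2 averaged. Its levels were 3.26, 8.30 and 483 RPKM in CCS, 2.24, 43.6 and 936 in OS, and 49.7, 175 and 1251 in SS. Again every control was above every tumour, with SS 44 (1251) next to Bone3 (1372). This transcript was above 0 in all 32 libraries. Its highest OS value was in Prx1Cre 42, where uc007wmx.2 had only 6.64 RPKM, so that these 2 members did not order the tumours alike.

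**Figure D5:**
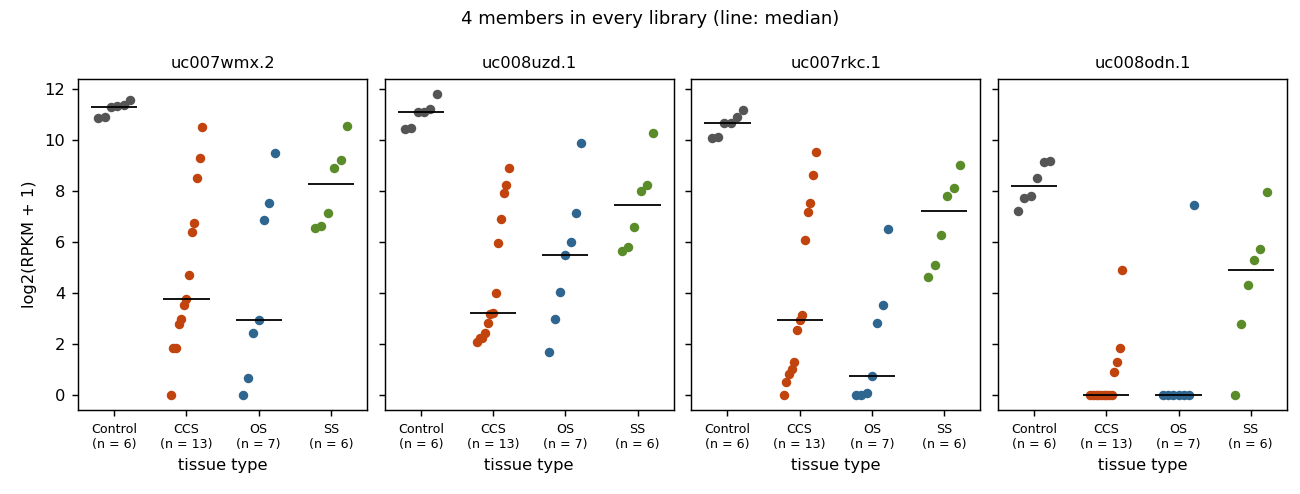
Level of 4 members as log2(RPKM + 1) in every library, 1 point per library, with a line at the median of each tissue type. Controls lie above all tumours for the first 3, and for uc008odn.1 the highest OS (175 RPKM) and SS (247 RPKM) libraries reach the controls (146 to 569 RPKM).

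Differences between tumour types were tested over the 26 tumours with limma on log2(RPKM + 1), fitted on 14731 transcripts. The rule limits each tumour median without ordering the types, so these tests are not wholly independent of it. Of the members, 119 passed the filter of at least 1 RPKM in 6 tumours, which keeps those with some residue. At an adjusted p under 0.05, 7 of the 119 were called between CCS and OS (2 higher and 5 lower in CCS), where 29.7% of all transcripts were called. Between CCS and SS, 2 were called, both lower in CCS, against 20.2% of all. Between OS and SS, 6 were called (2 higher and 4 lower in OS), against 25.3% of all. All 3 member shares were below that background. At an unadjusted p under 0.05 the counts were 13, 12 and 17. The 2 members called higher in OS than in SS had recovered lengths of 3 and 69 bases. In a fit of transcripts of at least 100 bases, 81 members were tested. There 2 were called higher and 2 lower in CCS than in OS, 0 higher and 2 lower in CCS than in SS, and 0 higher and 4 lower in OS than in SS.

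The median log2 difference over the 119 members was -0.15 for CCS minus OS, -0.42 for CCS minus SS and -0.42 for OS minus SS. Over all transcripts tested it was 0.05, -0.30 and -0.33. After median-ratio scaling of the libraries, the last 2 medians over all transcripts moved to -0.12 and -0.09, and the members' to -0.36 and -0.25. Calls over all transcripts that were higher in CCS than in SS went from 25.3% of calls to 43.4%, and those higher in OS than in SS from 19.9% to 39.7%. With quantile normalization these shares were 56.7% and 49.9%, so that between CCS and SS the calls higher in CCS outnumbered the lower ones, and the members' medians were -0.28 and -0.04 beside 0.03 and 0.02 over all transcripts. Members called between OS and SS went from 2 higher and 4 lower to 2 higher and 1 lower with median-ratio scaling, and to 2 and 2 with quantile normalization. The 2 higher ones in the main fit were under 100 bases.

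Single libraries moved these small counts. Calls between CCS and OS fell from 7 to 2 without Col1Cre 22, to 3 without Prx1Cre 28 and to 4 without Prx1Cre 38, Prx1Cre 42, Col1Cre 27 or SS 39-9, and numbered 11 without Bmi1IRESCreERT2 1. Between CCS and SS, limma called 1 member without SS 37-4, SS 37-8 or SS 44, 9 without Bmi1IRESCreERT2 1 and 0 without SS 39-9, where 10 had an unadjusted p under 0.05. Between OS and SS, 3 were called without SS 44.

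Of the long members called between types, uc007rkc.1 had the largest difference. This transcript of 1471 bases had 1073, 1607 and 2289 RPKM in the controls, with a mean of 1597 ± 470 (SD, n = 6), or 1700 ± 444 (SD, n = 5) with Chest1 and Chest2 averaged. In SS it had 23.7, 149 and 516 RPKM, and in OS 0, 0.697 and 89.0, where Col1Cre 27 alone passed 11 RPKM. The 2 types overlapped only through that library, which was above 3 of the 6 SS. OS was lower than SS by a log2 difference of -4.87 ± 1.51 (SE, adjusted p = 0.0199, limma). Without the 6 tumours that held the most members at 5 RPKM or more, it was -4.53 (adjusted p = 0.0518, limma). In CCS it ranged from 0 to 734 RPKM around a median of 6.60. The Bmi1IRESCreERT2 tumours had 734 and 399 RPKM, and Prx1CreERT2 2 had 183, TATCre N179-Larm 142 and Rosa26CreER 2 67.3, while the other 8 CCS were at 7.74 or lower.

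Next in size was uc008odn.1, 250 bases long, with 146, 293 and 569 RPKM in the controls and a mean of 345 ± 184 (SD, n = 6), or 301 ± 167 (SD, n = 5) with Chest1 and Chest2 averaged. It was listed at 0 in 9 of 13 CCS and in 6 of 7 OS. The exceptions were Bmi1IRESCreERT2 1 at 28.8 RPKM, 3 other CCS under 3 RPKM and Prx1Cre 42 at 175. In SS it was listed at 0 in SS 37-7 and had a median of 28.5 and a highest value of 247 RPKM, in SS 39-9. Prx1Cre 42 and SS 39-9 were thus above the lowest control, Chest4. CCS was lower than SS by -3.66 ± 1.02 on the log2 scale (SE, adjusted p = 0.0120, limma), and OS lower than SS by -3.28 ± 1.15 (adjusted p = 0.0379, limma). Without SS 39-9 the first difference was -2.94 (adjusted p = 0.0588, limma). The second had an adjusted p over 0.05 in 10 of the 26 fits that left out 1 tumour, at most 0.116 without SS 39-9 (limma). It was 0.0679 with the group and title number as a replicate block, 0.0554 with median-ratio scaling and 0.0538 with quantile normalization (limma).

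Among the clear cell sarcomas, the 4 initiating Cre groups were compared with a limma F test on 15195 transcripts. The filter was at least 1 RPKM in 2 of the 13 CCS. A transcript could thus enter through Bmi1IRESCreERT2 or Prx1CreERT2 alone, which hold 2 libraries each. The counts by group below are therefore a description. Of 137 members tested, 13 were called, or 9.49%, against 10.7% of all transcripts, and 45 had an unadjusted p under 0.05. The group mean was highest in Bmi1IRESCreERT2 for 11 of the 13 and in Prx1CreERT2 for 2. Over all 1633 transcripts called, it was highest in Bmi1IRESCreERT2 for 321 (19.7%) and in Prx1CreERT2 for 203 (12.4%), and the difference between members and all transcripts was not tested. The 11 members were chosen by this test, and their levels are a description. For those 11, the median was 33.7 RPKM in Bmi1IRESCreERT2 1 and 22.6 in Bmi1IRESCreERT2 2, compared with 6.91 in Rosa26CreER 2, 2.68 in Prx1CreERT2 2 and under 1 in the other 9 CCS. The control median over the 11 was 71.8 RPKM. All 11 had their highest CCS value in Bmi1IRESCreERT2 1, and the group holds 2 libraries. Calls numbered 29 without Bmi1IRESCreERT2 2, 22 without Rosa26CreER 2, 8 without Rosa26CreER 4 or TATCre N179-Larm, and 6 without Rosa26CreER 3, TATCre N123-RLN or Bmi1IRESCreERT2 1.

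Between Col1Cre and Prx1Cre osteosarcomas, limma called 0 of 94 members and 0% of the 12623 transcripts tested. At an unadjusted p under 0.05 there were 12 members and 570 transcripts. The Prx1Cre tumours were spread widely, at 0.0278%, 0.123% and 1.15% of reads in the members, and the Col1Cre tumours at 0.0335%, 0.0521%, 0.113% and 0.626%. The 2 groups overlapped on this measure.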

How the data were processed

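Total RNA was purified with a Qiagen kit and made into Illumina TruSeq libraries, per the labels' protocols. CASAVA 1.8.2, Novoalign 2.07.03 and the genome build mm9 come from the submitters' processing notes, with the counting program not given in the sources used here. RPKM values for 55419 UCSC transcripts in 32 libraries were deposited by the authors. Every column was matched to a library by title.

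The members and lists were chosen with earlier results of these data known. RPKM is not a count, so tests used limma 3.58.1 (R 4.3.3, intensity trend, two-sided, Benjamini-Hochberg adjustment, threshold 0.05) on log2(RPKM + 1). A pseudocount of 1 understates changes at low RPKM. Each test was fitted on the whole table, for transcripts with at least 1 RPKM in 6 of the 26 tumours, 2 of the 13 clear cell sarcomas or 3 of the 7 osteosarcomas. No covariate was used. The labels give no animal or batch, so p-values measure the spread between libraries, which may partly be technical.

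Depths, lengths and reads were recovered from the steps between RPKM values, and 99.95% of 16348 lengths came out whole within 0.05 bases. Recovery and limma fits were tested on simulated data. Pairs of controls were compared by chi-square over transcripts present in both with at least 100 reads in sum. Without gene names, the marker lists were left out. The named transcripts are the 2 long members of highest control median and the 2 with the largest difference among those called between tumour types. Overlapping transcripts of 1 locus may share or split reads. Alternatives covered the limit, minimum, pseudocount, filter, scaling, length, a replicate block and each library left out.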

Additional observations from a re-analysis of the deposited data

Results flagged for a closer look

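Within groups of 4 to 10 libraries, the members' share of reads and the 4 named transcripts were searched for a library far from the others (its gap to the nearest one, as a part of the whole range, over Dixon's 95% value). Of 29 groups, 18 had one, the highest library each time. Chance flags about 1 in 20 groups of independent, normally spread values. These groups share libraries, and members were chosen for low tumour medians, which leaves room for high values only, so the 18 are not set against that rate.

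Rosa26CreER 2 stood apart in the Rosa26CreER group on all 5 measures. The members took 0.344% of its reads, against 0.0269% in the next library. It had 623 RPKM of uc007wmx.2 (next 25.3), 241 of uc008uzd.1 (next 8.30), 67.3 of uc007rkc.1 (next 1.45) and 2.56 of uc008odn.1 (all others at 0). The last value was only 6 reads, and with all others at 0 any value above 0 would be flagged. The 5 measures are not independent, since the 4 named transcripts are members. TATCre N179-Larm stood apart in its group on 4 measures, with 0.128% of reads (next 0.0266%), 108 RPKM of uc007wmx.2 (next 6.82), 118 of uc008uzd.1 (next 15.1) and 142 of uc007rkc.1 (next 7.74).

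In osteosarcoma, the members took 0.626% of the reads of Col1Cre 26, against 0.113% in the next Col1Cre tumour. Col1Cre 27 had 718 RPKM of uc007wmx.2 (next 184) and 89.0 of uc007rkc.1 (next 10.7, both among all 7 osteosarcomas and among the 4 Col1Cre tumours). Prx1Cre 42 had 936 RPKM of uc008uzd.1 (next 140) and 175 of uc008odn.1 (all others at 0). In synovial sarcoma, SS 44 had 1510 RPKM of uc007wmx.2 (next 592) and 1251 of uc008uzd.1 (next 300.2), and SS 39-9 had 247 of uc008odn.1 (next 51.9).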

How the results depend on the processing

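The number of members was 216. It was 450 with a limit of 4-fold, 110 with 16-fold, 69 with class means (43 of them members), 345 with median-ratio scaling and 135 for lengths of at least 100 bases. It was 0 when each tumour library had to meet the limit, 43 when the 6 tumours with most members at 5 RPKM or more were left out of that, and 46 with Col1Cre 26 left out in place of Col1Cre 27 (the second set). Setting values listed at 0 to 10 reads gave 72 of the members with a length. These last 3, the fits without 6 libraries and the mean of Chest1 and Chest2 were chosen after seeing the data. Leaving out 1 library gave 194 to 326, with 326 without SS 37-8 and 325 without SS 44. The other 6 alternatives stayed within 1.5 times, although quantile normalization gave 310 and the pseudocount of 0.1 gave 280.

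Members called between types numbered, for CCS against OS, 4 for lengths of at least 100 bases, 4 without the 6 libraries, 2 without the second set, and 2 to 11 with 1 library left out (main value 7). For CCS against SS they numbered 4 without a filter, 5 without the 6 libraries, 4 without the second set and 0 to 9 with 1 left out (main value 2). For OS against SS they numbered 3 with median-ratio scaling, 10 in a fit of all 32 libraries and 3 to 9 with 1 left out (main value 6). The F test over Cre groups gave 9 to 17 under 6 alternatives and 6 to 29 with 1 left out, and the osteosarcoma test 0 throughout (limma, with 4 to 26 members at an unadjusted p under 0.05).

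Some titles share a number (N123, N37, N39). In the F test the replicate block was the number alone, which also joined tumours of different Cre groups, such as Rosa26CreER 2 and Bmi1IRESCreERT2 2. That fit called 17 members (correlation -0.15) and does not check the shared titles. In the type contrasts the block was the group with the number. They called 6, 2 and 4 members (consensus correlation 0.35), so none of these counts moved by over 1.5 times. Over all transcripts, CCS against SS went from 2970 calls to 1701. The OS against SS difference of uc008odn.1 then had an adjusted p of 0.0679 (limma), and 0.0554 and 0.0538 with median-ratio and quantile scaling. That of uc007rkc.1 was -4.53 (adjusted p = 0.0518, limma) without the 6 libraries and -3.79 (adjusted p = 0.130) without the second set. All named differences kept their sign in every alternative fit that tested the transcript. In both fits without 6 libraries uc008odn.1 did not pass the filter, so its differences were not tested there.

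Depth limits the short members most, since few reads make a high RPKM there.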
